A study of Mus musculus with 6 samples.

Results

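The enzymes that assemble triglyceride from fatty acids were followed in mouse liver by all probes that the array annotation assigns to 10 genes: Mogat1, Mogat2, Gpam, Agpat2, Agpat3, Lpin1, Lpin2, Lpin3, Dgat1 and Dgat2. These are 10 of 24239 gene symbols on the array, with 14 probes among them. They were taken as members of the pathway, with earlier results of these data known, and the rule that chose them uses no measured value. Liver RNA came from 7-week-old male B6C3F1 mice, a first-generation cross of 2 inbred strains with no engineered allele named in the labels. In the control group 3 mice received corn oil by mouth, and in the TCE group 3 mice received trichloroethylene (TCE), a chlorinated solvent, at 1000 mg/kg in the same oil, every day for 5 days. The RNA of each mouse was hybridized to an array of its own with a single dye.

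Triglyceride is built along 2 routes that meet at diacylglycerol. In the glycerol-3-phosphate route, glycerol-3-phosphate acyltransferases attach the first fatty acid, lysophosphatidate acyltransferases the next, and lipins remove the phosphate. In the monoacylglycerol route, which is best known from the absorptive cells of the intestine, monoacylglycerol acyltransferases reach diacylglycerol in a single step. Diacylglycerol acyltransferases then add the last fatty acid on both routes. The glycerol-3-phosphate route is the main one in normal liver, where Mogat1 mRNA is scarce, and Mogat1 is known to be raised in fatty liver.

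Of the 10 genes, Mogat1 rose 14.6-fold in the TCE group and had the smallest p of all probes tested, while 0 of the other 9 passed the threshold in either direction. The size of that rise is uncertain, since the probe was not well above background in control mouse 1 and the rise was 5.36-fold with another background correction (normexp). For the same reason the Mogat1 probe entered the test through the TCE group alone. The threshold was a limma adjusted p of 0.05 or less, adjusted by Benjamini-Hochberg over all detected probes, with a fold change of 2 or more. Only 1.41% of all probes tested passed it, so few passing genes would be looked for among 9. Lpin2, the lipin found mostly in liver, had a 2.17-fold higher mean that missed the threshold. Gpam, an entry enzyme of the glycerol-3-phosphate route, and both diacylglycerol acyltransferases had changes of 0.22 log2 units or less in size on their brightest probes. Outside the 10 genes, Agpat9, which encodes another glycerol-3-phosphate acyltransferase, rose 2.35-fold.

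The probes that carry these results are shown by their last 30 bases, 5′ to 3′ in the sense of the mRNA, since an array value is that of the stretch a probe binds. Capitals mark AATAAA, the hexamer of the polyadenylation signal, searched on the probe's own strand with overlapping matches counted.
Mogat1 probe: agaaagcatcgttgagaaAATAAATAAAta
Mogat2 probe: acatgttacctcAATAAAtgaaaggagtct
Gpam probe, brighter of 2: agtttAATAAATAAAaacctaatactaagc
Lpin2 probe, brighter of 2: ggagtgatggtgagaccttggtttgaatca
Lpin2 probe, dimmer of 2: atgcatatacctaaaatgaatagaAATAAA
The hexamer occurred in 4 of the 14 probes, those of Mogat1, Mogat2, Gpam (brighter) and Lpin2 (dimmer), and in 10.1% of the 55681 probes that are not controls. Among the 87 pairs of probes for different genes of the 10, the longest run of shared bases was 10, between Mogat1 and the brighter Gpam probe, and it was the repeated hexamer AATAAATAAA.

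The starts of Mogat1 and Gpam, 1 entry gene of each route, are shown next as a description. The windows are 300 bases around the RefSeq transcript starts on GRCm38.p6, in the direction of transcription. Capitals mark CCAAT or AGGTCA on either strand, so that ATTGG and TGACCT count as matches.
Mogat1, chr1:78510810-78511109, plus strand: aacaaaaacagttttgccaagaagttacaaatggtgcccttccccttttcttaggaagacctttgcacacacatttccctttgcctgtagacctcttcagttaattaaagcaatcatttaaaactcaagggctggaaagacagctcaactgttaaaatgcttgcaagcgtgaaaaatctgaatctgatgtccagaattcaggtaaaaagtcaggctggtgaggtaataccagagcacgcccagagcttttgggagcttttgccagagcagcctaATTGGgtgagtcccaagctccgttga
Gpam, chr19:55127189-55127488, minus strand: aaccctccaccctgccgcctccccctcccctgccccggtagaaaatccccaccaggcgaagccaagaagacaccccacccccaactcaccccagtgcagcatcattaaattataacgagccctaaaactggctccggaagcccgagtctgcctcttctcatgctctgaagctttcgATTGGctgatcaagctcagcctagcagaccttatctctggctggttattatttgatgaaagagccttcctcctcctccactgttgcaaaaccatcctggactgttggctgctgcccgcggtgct
Gpam, chr19:55099428-55099727, minus strand: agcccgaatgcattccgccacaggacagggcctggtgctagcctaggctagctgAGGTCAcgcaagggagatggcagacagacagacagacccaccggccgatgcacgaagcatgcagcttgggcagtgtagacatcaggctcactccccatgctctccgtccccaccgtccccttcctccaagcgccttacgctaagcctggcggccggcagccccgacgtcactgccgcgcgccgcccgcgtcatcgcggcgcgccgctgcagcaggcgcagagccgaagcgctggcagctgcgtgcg
The Mogat1 window held 1 CCAAT box and 3 CpG dinucleotides, and the Gpam windows held 9 and 30 CpG dinucleotides, against a median of 7 over all 32851 RefSeq promoter windows. CCAAT was found in 37.4% of all windows and AGGTCA, the half-site bound by many nuclear receptors, in 16.3%. The direct repeat AGGTCANAGGTCA (N, any base), which holds the half-site 2 times, has the ideal letters of a peroxisome proliferator-activated receptor element and was found in 0.0396% of all windows. It was found in 0 of the 11 windows of the 7 genes matched by symbol, which were Mogat1, Gpam, Agpat2, Agpat3, Lpin1, Lpin2 and Lpin3. The E-box CACGTG was in 1 window each of Lpin2 and Lpin3, and in 7.15% of all windows. These matches describe the letters of the windows and say nothing of binding in these livers.

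All values below are log2 of the processed intensity after quantile normalization of the 6 arrays, and probe positions are on mm9 as the array annotation gives them. Signals of different probes depend on the probe, so changes were compared between genes and levels were not. Between 23537 and 24965 probes were well above background per array, and Pearson's r across detected probes was at least 0.987 between control mice and at least 0.978 between TCE mice. Control mouse 1 was alone on its slide, and the remaining 5 arrays were on 1 other slide. A probe was tested if every mouse of the control group, the TCE group or both gave a signal well above background, as was the case for 22731 probes and for all 14 probes of the 10 genes. Of the 22731 probes, 1.41% passed the threshold, 1.03% higher and 0.383% lower in the TCE group. Each of the 10 genes was represented by its brightest detected probe, and 1 of them was called higher and 0 lower. The gene called was Mogat1, which was detected through the TCE group alone. Without the minimum fold change 2.01% of probes passed, and again 1 of the 10 genes. An unadjusted limma p under 0.05 was seen in 17.9% of probes and in 3 of the 10 genes, Mogat1, Lpin2 and Agpat3. In 25.7% of probes the 3 mice of one group all lay above the 3 of the other, and in the same 3 of the 10 genes. Signs were balanced, with 5 genes higher and 5 lower, and the median log2 change of the 10 genes was 0.04, against 0.02 over all probes tested.

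The monoacylglycerol acyltransferases differed from each other. Mogat1 was measured by 1 probe at chr1:78534677-78534736 on the plus strand. Its log2 signal was 5.05, 4.93 and 5.38 in control mice 1 to 3, and 8.95, 9.12 and 8.89 in TCE mice 1 to 3. The TCE mice lay close together and the gap from the highest control mouse to the lowest TCE mouse was 3.51 log2 units. The log2 change was 3.86 ± 0.15 (SE, n = 3 per group), with a 95% interval of 3.49 to 4.24 and a limma adjusted p of 0.000766. Its p ranked 1 among the 22731 probes tested.

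The control level of Mogat1 was near the limit of the array. The probe was well above background in control mice 2 and 3 and not in control mouse 1, and in all 3 TCE mice. It was therefore tested through the TCE group alone, where its signal was high. With no filter on dim probes the limma adjusted p of Mogat1 was 0.0133. The processed intensity of the Mogat1 probe before normalization was 37.8, 27.2 and 34.1 in the control mice and 602.3, 488.6 and 589.3 in the TCE mice. The mean pixel intensity of the same spots, with nothing subtracted, was 79.7 to 111.7 in control mice and 495.8 to 651.6 in TCE mice, over a local background of 32 to 47. The size of the change depended on the background correction and the offset, which were changed together. With the normexp background correction and an offset of 50, which pulls low signals together, the log2 change was 2.42, a 5.36-fold rise, and the limma adjusted p was 0.000178. Within the shared slide, without control mouse 1, it was 3.83 (adjusted p = 0.00366).

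Mogat2, the monoacylglycerol acyltransferase of the intestine, had a low signal in liver, well above background in all 6 mice. Its probe lies at chr7:106367601-106367660 on the minus strand. Its log2 signal was 5.71, 5.80 and 6.47 in the control mice and 6.19, 6.02 and 6.41 in the TCE mice. Control mouse 3 was the highest of all 6, and the groups overlapped. Its log2 change was 0.21 ± 0.23 (SE), with a 95% interval of -0.35 to 0.77 (limma adjusted p = 0.679), so a change of the size seen in Mogat1 lay outside the interval.

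Gpam encodes the mitochondrial glycerol-3-phosphate acyltransferase, which feeds fatty acids into the other route. Its brighter probe lies at chr19:55143274-55143333 on the minus strand. The log2 signal was 9.94, 10.14 and 10.03 in the control mice and 9.66, 10.13 and 10.21 in the TCE mice. TCE mouse 1 was the lowest and TCE mouse 3 the highest of all 6, with the controls between them. TCE less control came to -0.04 ± 0.17 log2 units (SE), with a 95% interval of -0.46 to 0.38 (limma adjusted p = 0.931). The other Gpam probe, at chr19:55144289-55144348, differed from it in pattern. It read 8.47, 8.77 and 8.71 in the control mice and 8.89, 8.82 and 9.07 in the TCE mice, which did not overlap. Its log2 change was 0.28 ± 0.14 (SE) with an adjusted p of 0.350, so neither probe passed the threshold.

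Agpat2 and Agpat3 encode lysophosphatidate acyltransferases, and loss of the human AGPAT2 causes a congenital lack of body fat. The brighter Agpat2 probe, at chr2:26448610-26448669, read 15.61, 15.67 and 15.76 in the control mice and 15.57, 15.41 and 15.68 in the TCE mice. The groups overlapped, with TCE mouse 2 the lowest. TCE less control came to -0.12 ± 0.12 (SE, limma adjusted p = 0.656), and that of the other probe, at chr2:26449107-26449166, was -0.26 ± 0.18 (SE, adjusted p = 0.511). TCE mouse 2 was again the lowest there, at 11.87 against 12.21 to 12.55 in the other mice.

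Agpat3 was the acyltransferase of this step with the higher mean in the TCE group. Its probe, at chr10:77736356-77736415, read 14.06, 14.32 and 14.43 in the control mice and 14.65, 14.80 and 14.69 in the TCE mice. All TCE mice lay above all control mice, by 0.22 log2 units at the nearest. A log2 change of 0.44 ± 0.14 (SE), or 1.36-fold, had an unadjusted limma p of 0.0161 and an adjusted p of 0.171, and it did not pass the threshold.

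The 3 lipins dephosphorylate phosphatidate to diacylglycerol, and lipin 1 and its relatives also act with transcription factors in the nucleus. Lpin1 had a flat mean on its brighter probe, at chr12:16543695-16543754, with 11.93, 11.31 and 11.39 in the control mice and 11.64, 11.48 and 11.50 in the TCE mice. Control mouse 1 was the highest, and the other control mice were the lowest. Its log2 change was 0.00 ± 0.19 (SE, limma adjusted p = 0.998). The dimmer Lpin1 probe, at chr12:16542515-16542574, varied widely within both groups, from 6.35 to 7.82 in the control mice and from 7.27 to 8.15 in the TCE mice, with a log2 change of 0.62 ± 0.41 (SE, adjusted p = 0.480).

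Lpin2 stood out among the lipins. Its brighter probe, at chr17:71596935-71596994 on the plus strand, read 10.97, 10.70 and 10.41 in the control mice and 11.91, 12.07 and 11.45 in the TCE mice. The groups did not overlap, and the gap between them was 0.48 log2 units. The log2 change was 1.12 ± 0.22 (SE), with a 95% interval of 0.59 to 1.64, an unadjusted limma p of 0.00179 and an adjusted p of 0.0667. It ranked 611 of 22731 probes by p. Over the other fits with an adjusted p, that p ranged from 0.0358 to 0.214, and the gene passed the threshold with normexp, with array weights and with a variance trend. Within the shared slide the change was 1.25 with an adjusted p of 0.105.

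The dimmer Lpin2 probe, at chr17:71581567-71581626, is the one that ends in the hexamer shown above. It read 6.35, 6.03 and 6.87 in the control mice and 7.47, 7.52 and 6.82 in the TCE mice. TCE mouse 3 fell just below control mouse 3, and the other TCE mice lay above all controls. Its log2 change was 0.85 ± 0.28 (SE) with an adjusted p of 0.195, so both probes of Lpin2 had higher means and neither passed the threshold.

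Lpin3, the lipin best known from the intestine, was the member with the widest spread among TCE mice on a brightest probe. Its probe, at chr2:160731469-160731528, read 8.36, 8.58 and 8.37 in the control mice and 8.42, 7.69 and 8.77 in the TCE mice. TCE mouse 2 was the lowest of all 6 and TCE mouse 3 the highest. TCE less control came to -0.14 log2 units ± 0.28 (SE, limma adjusted p = 0.829).

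Dgat1 and Dgat2 encode the enzymes that close both routes. They are unrelated in sequence: DGAT2 belongs to the same protein family as the monoacylglycerol acyltransferases, and DGAT1 does not. The Dgat1 probe aligns to chr15:76333128-76333274, a span of 147 bases for a probe of 60, and so crosses an intron. Dgat1 read 9.76, 9.80 and 9.46 in the control mice and 9.82, 9.84 and 9.62 in the TCE mice. Control mouse 3 and TCE mouse 3 were the lowest of their groups, and the groups overlapped. Its log2 change was 0.09 ± 0.14 (SE), with a 95% interval of -0.25 to 0.43 (limma adjusted p = 0.788).

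The Dgat2 probe, at chr7:106302215-106302274, lies 65.4 kb from the Mogat2 probe on the same strand of chromosome 7. Dgat2 read 16.63, 16.50 and 16.40 in the control mice and 16.41, 16.30 and 16.17 in the TCE mice. TCE mouse 1 lay just above control mouse 3, and the other TCE mice were below all controls. TCE less control came to -0.22 log2 units ± 0.12 (SE), with a 95% interval of -0.52 to 0.08 (limma adjusted p = 0.424).

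**Figure D1:**
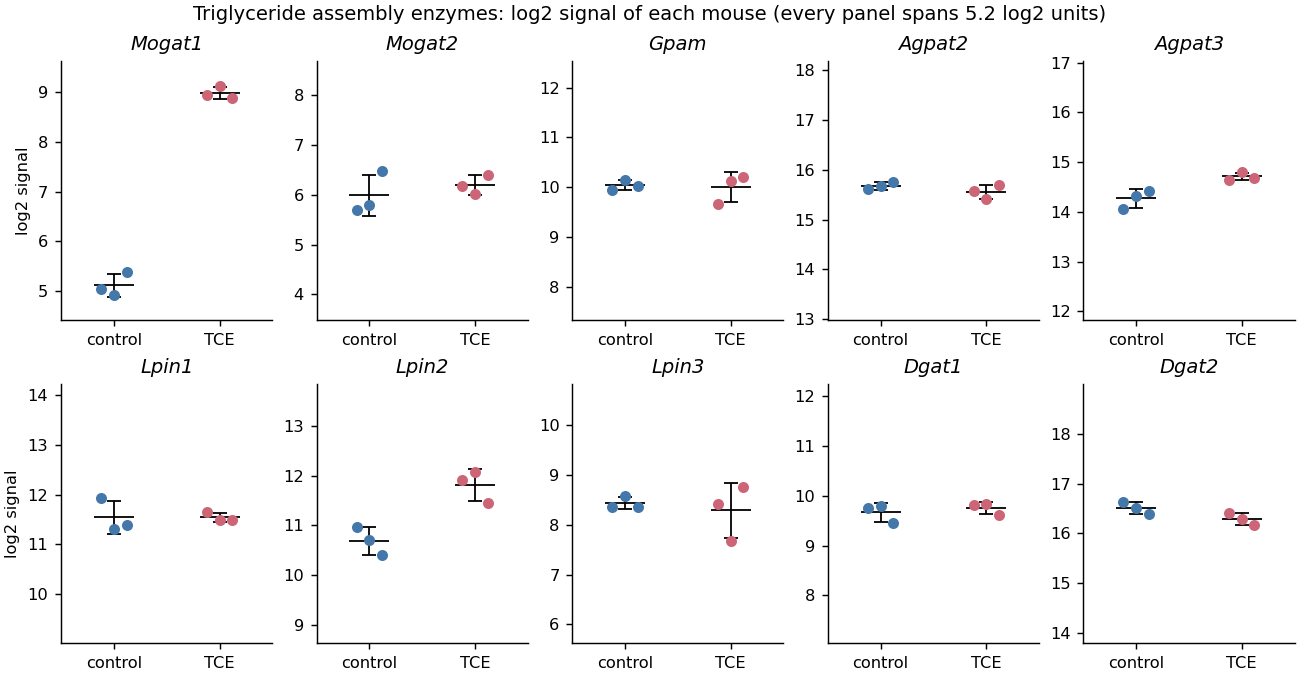
Log2 signal of each mouse for the brightest detected probe of each of the 10 genes, with control mice in blue and TCE mice in red. Horizontal bars are group means, vertical bars are the SD of 3 mice, and each panel spans the same number of log2 units, so that the steps can be compared and the levels cannot; the groups are far apart for Mogat1, and apart by a narrower gap for Lpin2 and Agpat3.

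**Figure D2:**
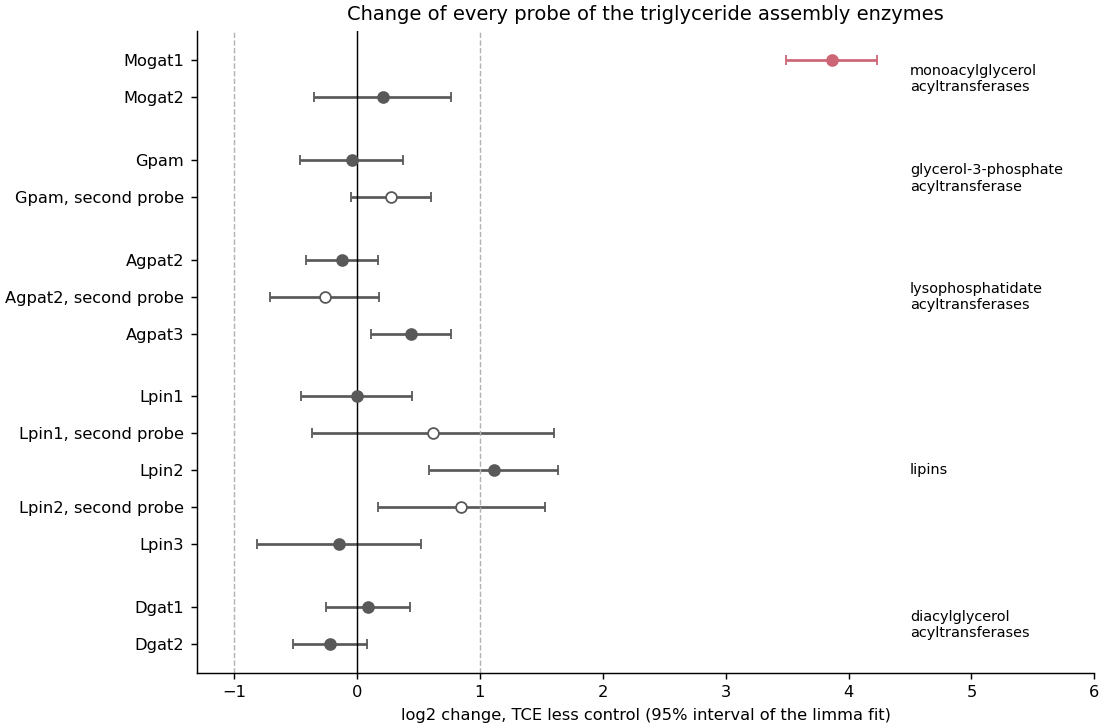
Log2 change from control to TCE (x axis) of all 14 probes, ordered by the step of the pathway. Points are limma estimates with 95% intervals, filled for the brightest probe of a gene and open for its second probe, dashed lines mark a fold change of 2, and red marks the probe past the threshold. Mogat1 lies at 3.86, and the brighter Lpin2 probe is the next highest at 1.12.

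The routes were then compared within each mouse. The log2 signal of Mogat1 less that of Gpam was -4.89, -5.21 and -4.65 in the control mice and -0.71, -1.01 and -1.32 in the TCE mice. The size of this difference depends on the probes, so that its change alone was read. That change was 3.90 log2 units, or 15.0-fold, with no overlap between groups. An exact two-sided permutation test over the 20 ways to choose 3 of 6 mice gave p = 0.1, the smallest p this design allows, and 0.114 after Benjamini-Hochberg adjustment over the 8 pairs of genes compared. With normexp the change was 2.49.

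The other pairs are given as descriptions, because the exact permutation test cannot give a p below 0.1 here. Mogat1 changed by 3.65 more than Mogat2, and Lpin2 by 1.12 more than Lpin1, both without overlap. Dgat1 changed by 0.30 more than Dgat2, also without overlap, although neither gene alone separated the groups, and groups were apart in 25.7% of single probes. The difference of Dgat1 less Dgat2 was -6.87, -6.71 and -6.94 in the control mice and -6.59, -6.46 and -6.55 in the TCE mice. Mogat2 and Gpam, the entry genes that did not pass the threshold, differed in change by 0.25, with overlapping groups (exact permutation p = 0.5). Mogat1 also changed by 4.08 more than Dgat2. The size of every pair with Mogat1 depends on the background correction and its offset. With normexp Mogat1 changed by 2.42, Mogat2 by 0.13 and Dgat2 by -0.19.

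Counted by route, 1 of the 2 members of the monoacylglycerol route passed the threshold and 0 of the 6 members of the glycerol-3-phosphate route. The share over all probes tested was 1.41%, so the count of 0 does not set the 6 apart from other probes. The 6 members of the glycerol-3-phosphate route had a median log2 change of -0.02 and ranged from -0.14 to 1.12, with 2 higher and 4 lower. Leaving out Mogat1, the 9 other genes had a median log2 change of 0.00.

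**Figure D3:**
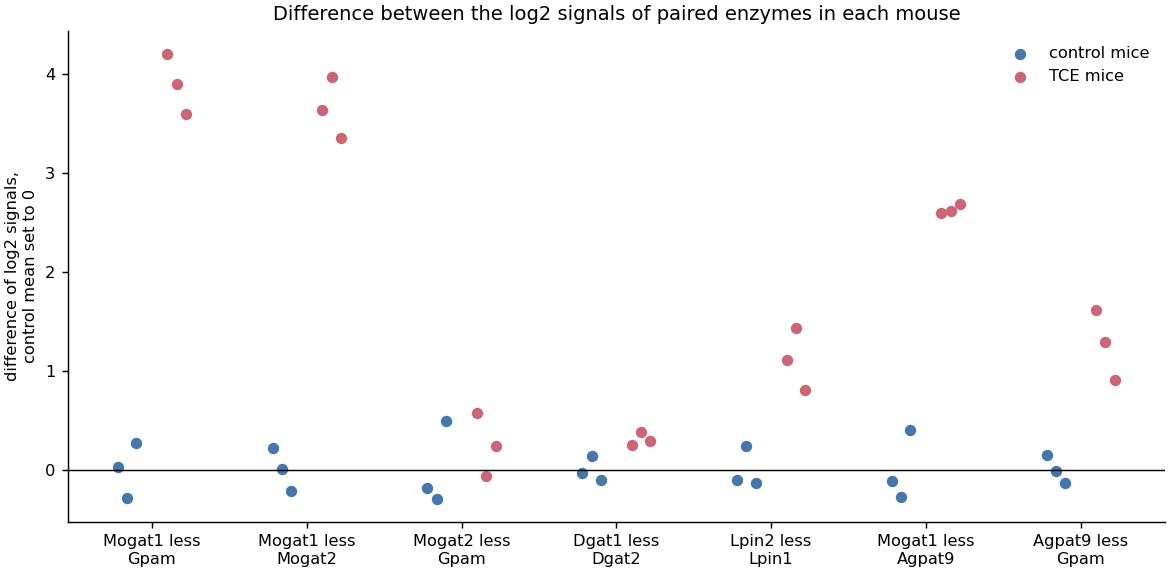
Difference between the log2 signals of 2 enzymes in each mouse (y axis, with the control mean of each pair set to 0) for 7 pairs, with control mice in blue and TCE mice in red. The pairs of Mogat1 with Gpam and with Mogat2 lie 3.90 and 3.65 above the control mean on average, and Mogat2 less Gpam overlaps. The size of the pairs with Mogat1 depends on the background correction and its offset.

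The genes around the pathway were taken from lists of 46 genes, of which 34 were detected. Of these 34, 4 rose past the threshold, Agpat9, Gpd2, Pnpla3 and Abhd6, and 0 fell, where 1.03% of all probes tested were called higher and 0.383% lower. The median log2 change of the 34 was 0.08, with 21 higher and 13 lower. Pnpla3 was detected through the TCE group alone, so it could enter the test only with a higher signal there. Aqp7 was also detected through the TCE group alone, with 2 control mice well above background. It did not pass the threshold (log2 change 0.91, limma adjusted p = 0.178).

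Agpat9, now named Gpat3, encodes a glycerol-3-phosphate acyltransferase of the endoplasmic reticulum and was the gene of the glycerol-3-phosphate route that passed the threshold. It read 10.60, 10.65 and 10.41 in the control mice and 11.79, 11.94 and 11.64 in the TCE mice. All TCE mice lay above all control mice. The log2 change was 1.23 ± 0.13 (SE, limma adjusted p = 0.0124), and the call was lost without control mouse 2, control mouse 3 or TCE mouse 1, with adjusted p of 0.0290 to 0.0603 over the 6 fits. Agpat9 changed by 1.27 more than Gpam in the same mice, without overlap, and Mogat1 by 2.63 more than Agpat9. These 2 pairs were added after the values of Agpat9 were seen. With normexp the log2 change was 2.42 for Mogat1 and 1.23 for Agpat9. The other acyltransferases of this route did not pass, and the smallest p among them was that of Gpat2, which had a log2 change of -0.44 ± 0.14 (SE, adjusted p = 0.187) and groups that did not overlap. Of all 4 glycerol-3-phosphate acyltransferase genes, 1 rose and 0 fell past the threshold, and of the 5 lysophosphatidate acyltransferase genes none passed, with 1 higher and 4 lower.

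Glycerol 3-phosphate is made from glycolytic dihydroxyacetone phosphate or from glycerol. Gpd2, the mitochondrial glycerol-3-phosphate dehydrogenase, which oxidizes it, was the 1 gene of 6 detected in this group that passed. It read 9.25, 9.52 and 9.71 in the control mice and 10.68, 10.58 and 10.59 in the TCE mice. The groups were well apart and the TCE mice nearly equal. The log2 change was 1.12 ± 0.15 (SE, limma adjusted p = 0.0230), and with 1 mouse left out the call was kept only without control mouse 3, with adjusted p of 0.0424 to 0.101 over the 6 fits. Gyk, now Gk, the kinase that phosphorylates glycerol, had a log2 change of 0.40 ± 0.12 (SE, adjusted p = 0.170) and did not pass.

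Enzymes that split acylglycerols were detected for 6 of 8 genes, and 2 of the 6 rose past the threshold. Abhd6, a monoacylglycerol hydrolase and so an enzyme that competes for the substrate of Mogat1, read 9.34, 8.74 and 9.32 in the control mice and 10.57, 10.77 and 10.19 in the TCE mice. All TCE mice lay above all control mice. Its log2 change was 1.37 ± 0.23 (SE, limma adjusted p = 0.0415), and the call was lost in all 6 fits with 1 mouse left out, with adjusted p of 0.0560 to 0.143.

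Pnpla3, a patatin-like protein of lipid droplets, did not rise clear of background in the control mice, at 4.55, 4.24 and 3.36, and read 7.42, 6.35 and 7.02 in the TCE mice. The fitted rise, from the signals as read, was 7.38-fold (limma adjusted p = 0.0252). A lower limit, which was not tested itself, was 4.44-fold. For it each control array was set to the lowest signal it called above background, unless the probe itself was brighter. That limit holds for this background correction, since the fitted rise with normexp was 2.28-fold. With no filter on dim probes the call was lost (adjusted p = 0.119). With 1 mouse left out the call was kept only without TCE mouse 2, with adjusted p of 0.0363 to 0.0958 over the 6 fits. Pnpla2, the adipose triglyceride lipase, changed by 0.93 log2 units ± 0.13 (SE) with an adjusted p of 0.0285, and Mgll, the monoacylglycerol lipase, by 0.90 ± 0.14 (SE) with an adjusted p of 0.0372. Both stayed under a fold change of 2, at 1.90 and 1.86. With Abhd6 and Pnpla3, 4 of the 6 detected lipase genes had an adjusted p of 0.05 or less, against 2.01% of all probes tested. With 1 mouse left out, the adjusted p of Pnpla2 was 0.0658 to 0.122, above 0.05 in all 6 fits. That range is not given for Mgll. Pnpla2 was named for its p, and Mgll was named after its values were seen.

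The remaining groups had no gene past the threshold, which 1.41% of all probes tested passed. The phosphatidate phosphatases other than lipins had 4 of 5 genes detected, and the smallest p was that of Ppap2b, now Plpp3, with a log2 change of -0.19 (limma adjusted p = 0.665). The branch to phospholipids had 7 of 8 detected, led by Chpt1, the choline phosphotransferase that uses diacylglycerol, with 0.48 (adjusted p = 0.158). The diacylglycerol kinases had 5 of 9 detected, led by Dgkd with 0.50 (adjusted p = 0.143). Of the other acyltransferases of the DGAT2 family, Awat1, Awat2 and Dgat2l6, 0 of 3 were detected, so Mogat1, Mogat2 and Dgat2 were the family members with measured signals.

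**Figure D4:**
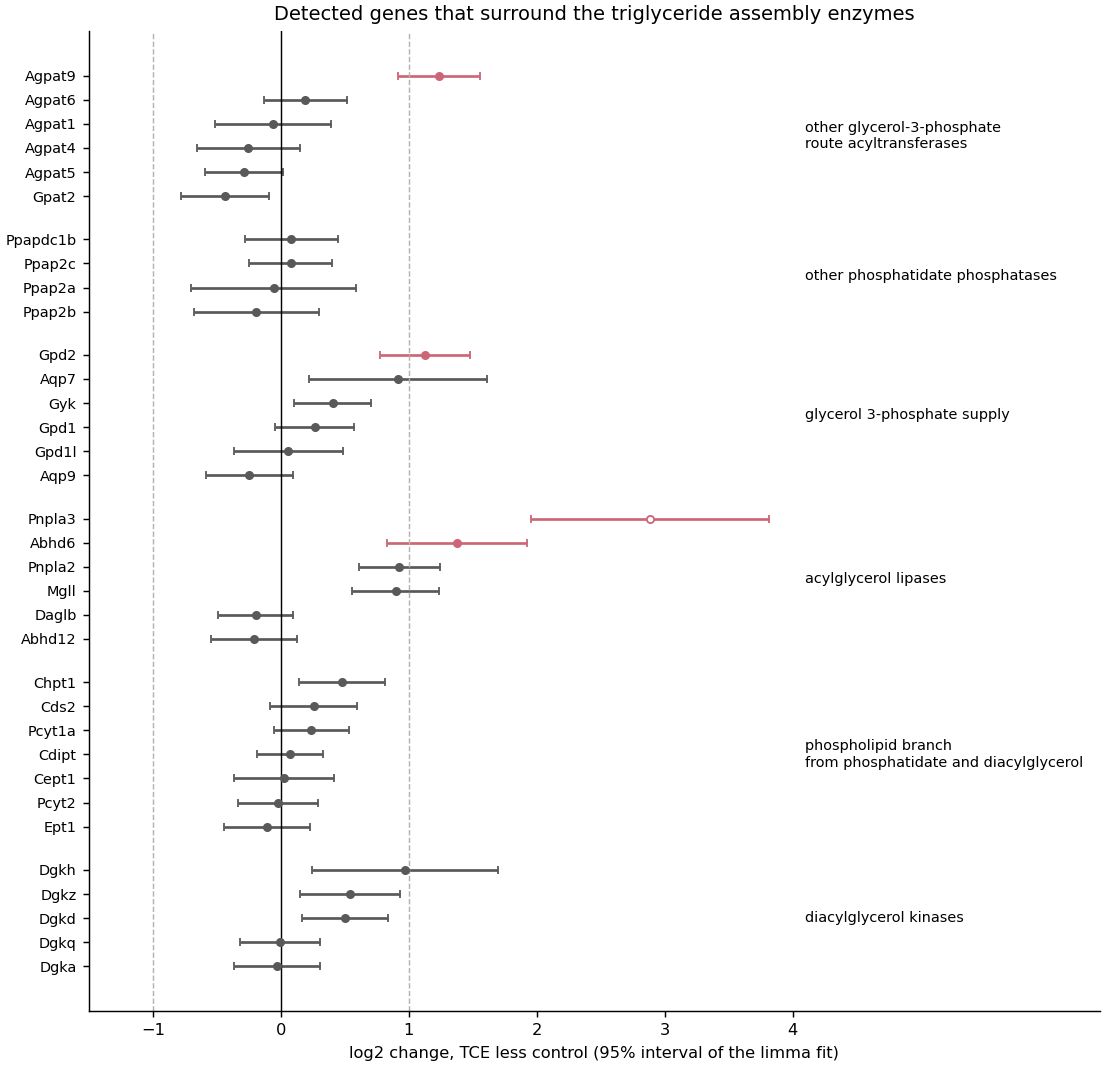
Log2 change from control to TCE (x axis) of the 34 detected genes of the surrounding lists, with the 95% interval of the limma fit. Red marks the 4 genes past the threshold, the open point marks Pnpla3, whose control level was not measured and whose fitted value is no limit, and dashed lines mark a fold change of 2. Abhd6 lies at 1.37, Agpat9 at 1.23 and Gpd2 at 1.12.

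Bulk liver RNA cannot tell apart a change in the number of cells of a type from a change in RNA per cell. The 8 hepatocyte markers were all detected, and 0 passed the threshold, with a median log2 change of -0.13 and a log2 summed level of 20.80 to 20.84 in control mice and 20.61 to 20.81 in TCE mice. Since monoacylglycerol acyltransferases and lipins also act in fat and intestine, markers of those cells were set beside the results. Of 8 adipocyte markers 2 were detected, and their log2 summed level was 9.81 to 10.09 in control mice and 10.88 to 11.23 in TCE mice. The defining markers Adipoq, Lep and Plin1, and also Cidea, were not well above background in any of the 6 mice. Cfd was so in TCE mouse 3 alone, and Retn in 1 TCE mouse and no control mouse. The 2 detected markers are not limited to fat: Fabp4 changed by 0.97 (limma adjusted p = 0.0382) and Slc2a4 by 2.69 (adjusted p = 0.113). Slc2a4 was well above background in only 2 control mice, so it entered the test through the TCE group alone and the size of its change is uncertain. The part of both markers in the results was not tested. Of 8 enterocyte markers 3 were detected, Vil1, Fabp2 and Apoa4, of which liver also expresses Fabp2 and Apoa4. The log2 summed level of these 3 enterocyte markers was 14.73 to 14.92 in control mice and 15.09 to 15.54 in TCE mice. Vil1 was lower past the threshold (limma adjusted p = 0.0419), but it entered the test through the control group alone and its signal was not above background in any TCE mouse, while the signals of Sis, Lct, Cdx2, Slc5a1 and Cdh17 did not clear background in any of the 6 mice. In the lists of Kupffer, stellate, sinusoidal endothelial, cholangiocyte and lymphoid markers, 0 genes passed, where 1.41% of all probes tested did. The means of these markers were mostly lower in the TCE group. All 8 Kupffer markers had lower means, with a median log2 change of -0.14, and so had all 8 sinusoidal endothelial markers, with -0.20. Over all probes tested the median was 0.02. TCE mouse 1 had the lowest signal of the TCE mice in every endothelial marker and in most Kupffer markers. The endothelial marker Clec4g read 12.46 in TCE mouse 1, 13.84 and 13.53 in TCE mice 2 and 3, and 13.38 to 13.61 in the control mice. Of the 7 stellate markers detected 5 were lower, and in 2 of them the groups did not overlap: Lrat, the enzyme that esterifies retinol, changed by -1.35 (limma adjusted p = 0.0676) and Ngfr, a neurotrophin receptor, by -0.97 (adjusted p = 0.0738). Groups also did not overlap in 2 of the 8 hepatocyte markers and 2 of the 8 endothelial markers, and in 25.7% of all probes tested. The log2 summed level of the stellate markers was 14.43 to 15.10 in control mice and 14.63 to 14.94 in TCE mice, that of the Kupffer markers 14.60 to 14.78 and 14.49 to 14.86, and that of the endothelial markers 14.65 to 14.70 and 13.82 to 14.75. The part of these cell types in the results was not tested.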

How the data were processed

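Liver RNA of 6 mice, 3 per group, was measured on 1-colour arrays of 62976 spots. The authors extracted the scanned images with Feature Extraction 10.7.1.1 (per the submitters' processing notes), and their deposited files give for each spot a processed intensity, with background subtracted and trends corrected, mean pixel and local background intensities, and flags. The authors also deposited a series table with the log2 group means after quantile normalization, which served as an alternative, and 6 columns of detection flags, which were not used because their names could not be tied to single mice.

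Without control spots there were 59305 spots of 55681 probes, and 123 to 189 outlier spots per array were set to missing. No spot was saturated (0 spots). Processed intensities were converted to log2 without a pseudocount, averaged over spots of a probe and quantile normalized. Detected probes, those above background in every mouse of a group, were fitted in R 4.3.3 by lmFit and eBayes of limma 3.58.1 (two-sided, no covariates), with Benjamini-Hochberg adjustment over all 22731 of them. The number of arrays limits the precision. The mice are separate animals. The detected probe with the highest mean log2 signal stood for its gene, and the other probes are given too. Named genes were all 10 members and, of the surrounding lists, each gene past the threshold and the gene with the smallest p of those not past it. Pnpla2 was the lipase gene that this rule named by its p, and Mgll was named in addition, after its values were seen. Procedures were tested on simulated data. Members, lists and alternatives were chosen with earlier results of these data known. Alternatives were the scaling, background correction, filters, blocks, weights, variance model, the methods' t-test, each mouse left out and the choice of probe. Symbols were updated and promoter windows taken from RefSeq (GRCm38.p6). Exon annotation on mm9 and protein sequences were not used here.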

Additional observations from a re-analysis of the deposited data

How the results depend on the processing

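Mogat1 passed the threshold in all 14 separate other fits that gave it an adjusted p, up to 0.0382, counting the slide block, the shared slide and the fit without control mouse 1 as 1 fit because their values are equal, and was not tested when a signal well above background on all 6 arrays was required, which left 0 of the 10 genes past the threshold. That count was 2, with Lpin2 added, under normexp, array weights, a variance trend and the methods' t-test without adjustment, and 1 with any mouse left out. Mogat1 less Gpam was 2.49 under normexp and 3.75 to 4.06 with 1 mouse left out. Of all detected probes, 594 passed by the methods' t-test without adjustment, 35 by that test with adjustment, 96 with no filter on dim probes, 177 with a slide block or within the shared slide, and 126 to 272 with 1 mouse left out. Of the surrounding genes, 0 passed by the adjusted t-test or with no filter on dim probes, 1 with a slide block or within the shared slide, and 0 to 2 with 1 mouse left out. With the replicate block, 63 probes, 0 surrounding genes and Mogat1 (adjusted p = 0.0237) passed. Correlations of deviations between the groups were 0.09, 0.01 and -0.09 for the same replicate numbers, and -0.11 to 0.11 for different numbers. With 3 mice per group these values cannot show whether the mice were paired. The cause of the shifts between fits was not tested.

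Changes near 0 switched sign. Gpam was 0.0259 with scaling to the 75th percentile, 0.12 as the mean of its probes, and -0.15 to 0.13 with 1 mouse left out. Lpin1 was 0.0644 with that scaling, 0.10 with array weights, 0.31 as the mean of its probes, 0.0622 under normexp, 0.19 with a slide block or within the shared slide, and -0.12 to 0.19 with 1 mouse left out. Dgat1 was -0.0185 to 0.16 and Lpin3 -0.38 to 0.16 with 1 mouse left out. Scaling moved the median of all probes by 0.01.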
